A study of Mus musculus with 33 samples.

Results

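Genes that are widely read as a response to bone morphogenetic protein (BMP) were followed through single cells of the mouse colon. They are the 4 inhibitors of differentiation Id1, Id2, Id3 and Id4, the feedback genes Smad6, Smad7 and Bambi, and the transcription factor genes Msx1, Msx2 and Atoh8. The 10 were chosen by name and not by a cut on a measured value, as 10 of the 31053 genes listed for the 3 single-cell libraries. Earlier results of these data were known when they were chosen. The series holds further bulk and chromatin samples, not analysed here. All 3 libraries came from the colons of adult mice of both sexes that received no treatment, perfused and stripped of the outer muscle layer, with EDTA and collagenase used to free the cells. The whole mesenchyme library (1 sample, genotype given as control) was sorted as live cells lacking EpCAM and CD45, so that epithelium and blood cells were to be left out. The GFP-low libraries (2 samples, replicates 1 and 2) came from PdgfraH2BeGFP mice, in which the Pdgfra locus drives a nuclear green fluorescent protein, and were sorted unstained for a low level of that protein. Group and genotype therefore cannot be told apart between these libraries. Since no label ties the GFP-low replicates to different mice, the p-values rest on the spread between libraries, and that spread may be technical.

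BMP ligands bind paired type I and type II receptors, which phosphorylate Smad1, Smad5 and Smad9, and these enter the nucleus with Smad4 and switch on target genes. The Id genes are among the best known direct targets, and their proteins bind E proteins and keep them off DNA. Smad6, Smad7 and Bambi are induced by the pathway and act back on it, Smad6 and Smad7 as inhibitory Smads and Bambi as a receptor without a kinase domain. In the gut, Pdgfra-high cells beneath the epithelium, often called telocytes, make BMP ligands near the surface, whereas fibroblasts that make the secreted BMP antagonist Grem1 lie near the crypt base. Id genes also respond to serum, stress and other signals, so their RNA is not specific to BMP.

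The promoters of 7 of the 10 genes were at hand from RefSeq on GRCm38.p6, each running 250 bases before to 50 after the transcription start. They were searched on both strands for GGCGCC and GCCGNCGC, GC-rich letters bound by BMP-activated Smads, and for GTCTAGAC, a palindromic Smad box. Of the 7 promoters, 5 held GGCGCC or GCCGNCGC, against 17.8% of 32851 mouse promoters of the same length. These promoters are richer in G and C than most, at 60.0 to 73.3% against a median of 52.7%, and GC content alone raises the chance of such letters. GTCTAGAC was found in 0.213% of all promoters, and Smad6 held one. The 5 sequences printed here belong to genes that passed the test between the 2 fibroblast classes described further on. They are shown from 250 bases before to 30 after the start, with matches in capitals.
Id2, chr12:25096063-25096342, minus strand, with GGCGCC starting 231 bases before the start: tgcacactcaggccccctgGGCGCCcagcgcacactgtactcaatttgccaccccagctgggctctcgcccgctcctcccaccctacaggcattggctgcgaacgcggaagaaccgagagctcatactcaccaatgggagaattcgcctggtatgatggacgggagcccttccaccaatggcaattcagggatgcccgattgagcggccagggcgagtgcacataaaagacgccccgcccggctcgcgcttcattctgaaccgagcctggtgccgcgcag
Msx1, chr5:37824556-37824835, minus strand, with a GCCGNCGC match on the opposite strand: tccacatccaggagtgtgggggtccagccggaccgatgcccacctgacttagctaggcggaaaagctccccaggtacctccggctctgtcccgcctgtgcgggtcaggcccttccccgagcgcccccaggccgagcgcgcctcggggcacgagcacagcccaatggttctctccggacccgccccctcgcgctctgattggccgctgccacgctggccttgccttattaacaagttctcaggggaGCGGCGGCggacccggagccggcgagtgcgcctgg
Id4, chr13:48260866-48261145, plus strand, with one match of each GC-rich form: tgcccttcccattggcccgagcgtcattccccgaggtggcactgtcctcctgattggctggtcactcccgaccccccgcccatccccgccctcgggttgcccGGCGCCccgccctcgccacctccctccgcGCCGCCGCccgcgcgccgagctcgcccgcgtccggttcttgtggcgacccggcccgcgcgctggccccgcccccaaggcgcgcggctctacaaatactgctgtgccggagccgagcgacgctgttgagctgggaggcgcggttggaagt
Atoh8, chr6:72235548-72235827, minus strand, with 2 overlapping GCCGNCGC matches after the start: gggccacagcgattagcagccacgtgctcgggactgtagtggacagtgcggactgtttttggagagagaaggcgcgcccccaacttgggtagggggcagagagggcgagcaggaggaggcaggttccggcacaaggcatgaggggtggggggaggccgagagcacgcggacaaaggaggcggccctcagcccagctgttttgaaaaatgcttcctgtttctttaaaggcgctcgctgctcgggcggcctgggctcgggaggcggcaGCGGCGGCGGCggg
Smad6, chr9:64022030-64022309, minus strand, with GTCTAGAC across the start region: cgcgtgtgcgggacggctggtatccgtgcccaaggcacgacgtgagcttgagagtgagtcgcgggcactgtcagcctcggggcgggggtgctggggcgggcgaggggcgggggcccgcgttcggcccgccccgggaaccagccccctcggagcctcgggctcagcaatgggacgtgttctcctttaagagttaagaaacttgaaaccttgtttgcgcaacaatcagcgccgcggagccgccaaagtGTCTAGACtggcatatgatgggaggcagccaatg
A match describes letters in this window and is not a measured binding site. The promoter of Id3 held none of the 3 forms, and that of Msx2 held 1 GCCGNCGC match.

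Depth was counted in unique molecular identifiers (UMIs), each standing for 1 captured RNA molecule. The whole mesenchyme matrix held 41863444 of them, that of GFP-low replicate 1 held 39190629 and that of GFP-low replicate 2 held 52313765. Kept cells had 1000 or more UMIs, 500 or more genes and no more than 20% mitochondrial UMIs. Whole mesenchyme gave 6793 such cells with a median of 4429 UMIs, and GFP-low replicates 1 and 2 gave 4834 and 6025, with medians of 6446.5 and 7025 UMIs. Pairs of libraries shared 6 to 11 barcodes. Cells were clustered without the 10 genes, and clusters were named by marker genes. Whole mesenchyme held 3347 Adamdec1-expressing Cd81-low fibroblast-like cells, 649 Cd81-high fibroblast-like cells, 1570 Pdgfra-high telocyte-like cells, 802 blood endothelial-like cells, and 59 to 156 cells each of lymphatic endothelial, glial, pericyte and smooth muscle or myofibroblast type. The GFP-low libraries were mostly Cd81-high (3478 and 4566 cells) and Cd81-low (1205 and 1374 cells) fibroblasts. They held 24 and 14 telocyte-like cells. The telocyte class depends on how it is drawn, since gating cells by their own marker UMIs gave 338 telocytes in whole mesenchyme. Over all libraries 341 cells of the telocyte cluster were gated as telocytes, 416 as Cd81-low fibroblasts and 825 as no class. Of the pericyte cluster, 36 cells were gated as pericytes, 33 as smooth muscle or myofibroblasts and 14 as no class. Of the T or innate lymphoid cluster, 57 cells were gated as its own class and 25 as no class. A further 29 were gated as Cd81-low and 16 as Cd81-high fibroblasts. The GFP-low libraries, which were not stained for CD45, held 83 and 35 T or innate lymphoid and 21 and 23 B or plasma cells, and whole mesenchyme held 10 and 12. Several fibroblast clusters came mostly from 1 library, so a difference between such clusters and a difference between libraries cannot be told apart. Levels are given as UMIs of a gene per 1000000 UMIs of the same cells (CPM), with exact 95% Poisson intervals that cover counting error only.

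Id1 was highest in blood endothelium and low in both fibroblast classes. With classes drawn by cluster, telocytes were next highest. In whole mesenchyme its level was 1512 CPM in blood endothelium (interval 1465 to 1560), 722 in telocytes (702 to 743) and 482 in pericytes (406 to 570). It was 261 CPM in lymphatic endothelium (195 to 342) and 214 in glia (164 to 275), whose intervals overlapped. Smooth muscle (37.0 CPM), Cd81-low (46.8) and Cd81-high fibroblasts (34.8) formed the low end, and neighbours among them overlapped. With cells gated by their own marker UMIs in place of clusters, Cd81-low fibroblasts were at 101 CPM and smooth muscle at 110 CPM. Pericytes (1056 CPM, 37 cells) and telocytes (1051 CPM, 338 cells) then stood level, so the order of these classes depends on how they are drawn. The 24 telocytes of GFP-low replicate 1 held 348 CPM (264 to 450), below the whole mesenchyme telocytes and far above that library's fibroblasts, at 12.2 CPM in the Cd81-high and 38.4 CPM in the Cd81-low class. GFP-low replicate 2 held 16.6 and 30.3 CPM in these classes. With every cell thinned to 1000 UMIs, 60.5% of blood endothelial cells and 38.0% of telocytes of whole mesenchyme had an Id1 UMI (79.4% and 66.0% before thinning). Fibroblasts had one in 1.18 to 5.50% of cells (5.35 to 15.8% before thinning). Among the 83 T or innate lymphoid cells of GFP-low replicate 1 none had one after thinning, which allows a share of up to 4.35% (exact binomial interval), and 3.61% had one before thinning. Barcodes with 10 to 100 UMIs, which hold free RNA, carried Id1 at 424 CPM in whole mesenchyme but 27.8 and 12.2 CPM in GFP-low replicates 1 and 2. Fibroblasts thus held less Id1 than free RNA in whole mesenchyme, whereas in GFP-low replicate 1 they lay on both sides of it. In GFP-low replicate 2 Cd81-low fibroblasts lay above it. The Cd81-high level there lay within the free RNA interval of 5.56 to 23.1 CPM, which rests on 9 UMIs. The part of free RNA in the fibroblast values was not tested.

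**Figure D1:**
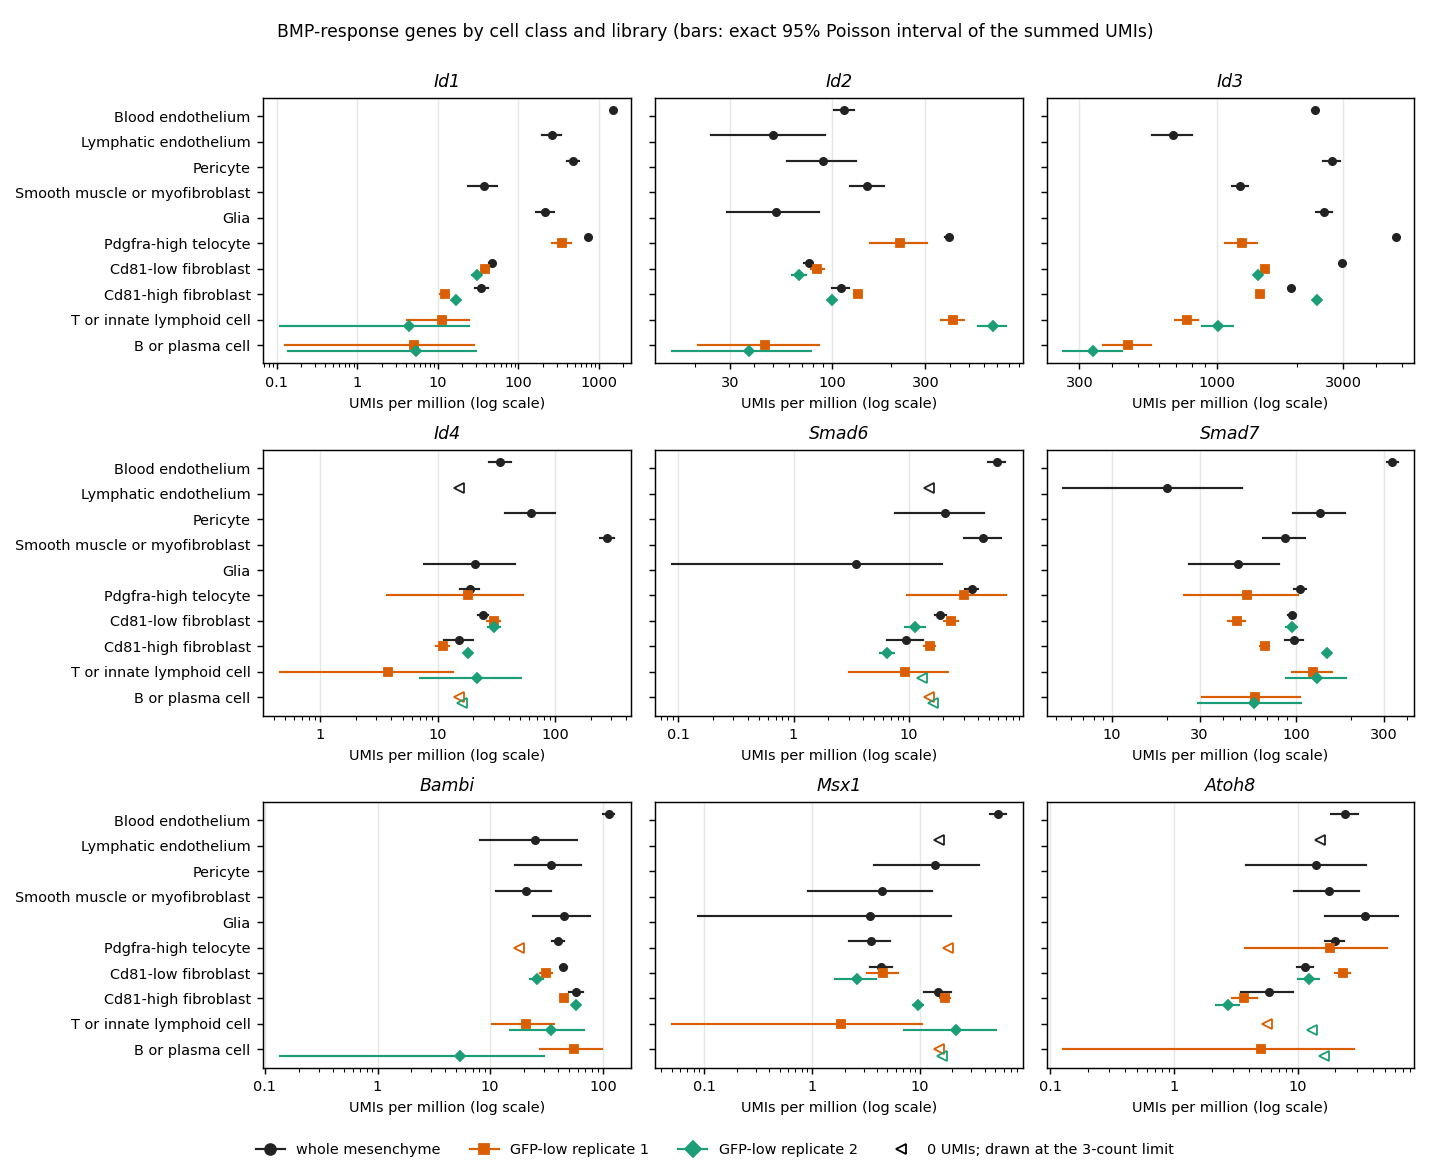
Level of each gene in CPM (log axis) by cell class, with 1 point per library and exact 95% Poisson intervals as bars. Open triangles stand for 0 UMIs and sit at the level that 3 counts would give. Id1 runs from 34.8 CPM in Cd81-high fibroblasts to 1512 CPM in blood endothelium of whole mesenchyme, while Id3 was found in every class.

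Id2 was highest in telocytes among the whole mesenchyme classes, at 394 CPM (379 to 410). The other classes ran from 151 CPM in smooth muscle and 115 in blood endothelium down to 51.9 in glia and 50.1 in lymphatic endothelium, and each overlapped its neighbour in that order. Telocytes of GFP-low replicate 1 were at 222 CPM (156 to 306). T or innate lymphoid cells of the GFP-low libraries, in which Id2 is known to be needed for innate lymphoid development, were at 414 and 661 CPM. Their own markers summed to 2737 and 1899 CPM, and Cd81-low fibroblast markers in the same cells to 4911 and 6589 CPM. The part of fibroblast RNA in these Id2 values was not tested. B or plasma cells of the same libraries were at 45.2 and 37.7 CPM.

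Id3 was detected in 16085 cells and in every class. In whole mesenchyme telocytes had the highest level, 4772 CPM (4719 to 4825), followed by Cd81-low fibroblasts at 2970.2 CPM (2945 to 2996). Pericytes (2711 CPM), glia (2541) and blood endothelium (2341) were next, with overlapping neighbours, and lymphatic endothelium was lowest at 676 CPM (567 to 801). Telocytes of GFP-low replicate 1 held 1236 CPM (1073 to 1417), well under those of whole mesenchyme. The summed level of 12 genes known to be induced by tissue dissociation, among them Fos, Jun and Egr1, was 45386 CPM in the whole mesenchyme telocytes and 8965 CPM in those of GFP-low replicate 1. The part of these genes and of the markers in the Id3 difference was not tested. After thinning, Id3 was found in 87.9% of telocytes and 54.2 to 78.4% of fibroblasts (96.3% and 87.3 to 94.2% before thinning). It was also found in 33.3 and 34.8% of B or plasma cells, and free RNA held 4006, 2426 and 2571 CPM of Id3 in whole mesenchyme and GFP-low replicates 1 and 2.

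Id4 had the narrowest pattern of the 4. It stood at 277 CPM (238 to 319) in smooth muscle or myofibroblasts of whole mesenchyme, and pericytes were next at 62.5 CPM (37.0 to 98.7). All other classes were at 33.9 CPM or below. No Id4 UMI was seen in the 59 lymphatic endothelial cells, which allows up to 18.5 CPM.

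The feedback genes were highest in blood endothelium. Smad7, which blocks the type I receptors of BMP and TGF-beta, was at 334 CPM there (313 to 357), against 135 CPM in pericytes, 105 in telocytes, 97.9 in Cd81-high and 95.3 in Cd81-low fibroblasts. Bambi was at 113 CPM in blood endothelium (101 to 127) and between 20.7 and 57.6 CPM elsewhere. Smad6, the inhibitor more particular to BMP receptors, was at 58.2 CPM (49.3 to 68.2) in blood endothelium, where its interval overlapped that of smooth muscle at 44.4 CPM (29.9 to 63.4). The homeobox gene Msx1 was at 53.2 CPM in blood endothelium (44.7 to 62.8), and Cd81-high fibroblasts followed at 14.6 CPM (10.8 to 19.4). Atoh8, a helix-loop-helix factor gene, ran from 34.6 CPM in glia, on 10 UMIs, to 5.79 CPM in Cd81-high fibroblasts. Lymphatic endothelium held no Atoh8 UMI, which allows up to 18.5 CPM. Msx2, the second Msx gene, gave 3 UMIs over all cells of the 3 libraries and is not described further.

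Set against Cd81-low fibroblasts within whole mesenchyme, with 1 library and so no test, 6 of 9 genes were at least 2-fold higher in blood endothelium, where 13.8% of all genes compared were. These were Id1 (32.3-fold), Msx1 (12.2-fold), Smad7 (3.51-fold), Smad6 (3.1-fold), Bambi (2.54-fold) and Atoh8 (2.10-fold), and 0 of 9 were at least 2-fold lower, where 17.4% of all genes were. With cells gated by their own marker UMIs, Id1 was 16.5-fold above Cd81-low fibroblasts in blood endothelium, 10.4-fold in telocytes, 10.5-fold in pericytes, 2.65-fold in lymphatic endothelium and 1.6-fold in glia, which then fell under 2-fold. Telocytes had 2 of 9 at least 2-fold higher, Id1 (15.4-fold) and Id2 (5.19-fold), beside 6.59% of all genes, and 0 of 9 lower beside 7.37%. Pericytes had 3 of 9 higher, Id1 (10.3-fold), Msx1 (3.19-fold, on 4 UMIs) and Id4 (2.55-fold), beside 15.3%, and 0 of 9 lower beside 7.49%. Smooth muscle had Id4 (11.3-fold) and Smad6 (2.37-fold) higher, 2 of 9 beside 9.57%, and Id3 and Bambi lower, 2 of 9 beside 6.40%. Glia had 2 of 9 higher beside 15.6%, Id1 and Atoh8, and 0 of 9 lower beside 8.15%. For a call as lower, any gene under 3 UMIs in the class was counted as 3. Smad6 in glia, on 1 UMI, was 5.43-fold below Cd81-low fibroblasts and was therefore not called. Msx1, at 4.36 CPM in Cd81-low fibroblasts, could not be called lower in glia, pericytes, smooth muscle or lymphatic endothelium. Nor could Atoh8 in glia and pericytes, or Smad6 in pericytes. The same held for Id4, Smad6 and Atoh8 in lymphatic endothelium, which had 0 UMIs of each. All of these genes stayed among the 9 counted. Lymphatic endothelium had 1 of 9 higher beside 18.2%, Id1, and 2 of 9 lower beside 7.65%, Id3 and Smad7. Cd81-high fibroblasts had 1 of 9 higher beside 5.06%, Msx1, and 0 of 9 lower beside 8.30%.

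The class with the most Id1 was not the class with the most ligand. The summed level of the 12 ligands that act through Smad1, Smad5 and Smad9 was 2418 CPM in telocytes of whole mesenchyme, 1171 CPM in its Cd81-low fibroblasts, 474 CPM in its Cd81-high fibroblasts and 244 CPM in its blood endothelium. Telocytes carried Bmp2 (796 CPM), Bmp4 (744), Bmp5 (672) and Bmp7 (155). Bmp4 was the main ligand RNA in Cd81-low fibroblasts, at 712, 1027 and 928 CPM in whole mesenchyme and GFP-low replicates 1 and 2. Grem1 was at 2579, 2289 and 2749 CPM in Cd81-high and at 346, 949 and 636 CPM in Cd81-low fibroblasts in the same order, and at 44.9 CPM in telocytes. The summed receptors and Smads were at 1876 CPM in blood endothelium and 867 CPM in Cd81-low fibroblasts of whole mesenchyme.

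Cd81-high and Cd81-low fibroblasts were present in all 3 libraries, so the 10 genes could be compared within each library. The test was edgeR's quasi-likelihood test on summed UMIs, with library as a block and Benjamini-Hochberg adjustment over all genes tested that had not been used for clustering. Of 9 genes tested, 8 passed, in a comparison in which 29.6% of 6252 genes did. Msx1, Bambi, Id2 and Smad7, 4 of 9, were higher in Cd81-high cells, beside 14.5% of all genes, and Atoh8, Id1, Id4 and Smad6, 4 of 9, were lower, beside 15.0%. The median log2 difference of the 9 was 0.09. Msx1 stood at 14.6, 17.2 and 9.60 CPM in Cd81-high and at 4.36, 4.54 and 2.59 CPM in Cd81-low cells of whole mesenchyme and GFP-low replicates 1 and 2. The groups did not overlap, and the difference on the log2 scale was 1.93 (SE 0.15, adjusted p = 4.5e-05). Id2 stood at 111, 135 and 99.5 CPM in Cd81-high and 75.9, 84.0 and 68.0 CPM in Cd81-low cells, again without overlap, with a log2 difference of 0.68 (SE 0.09, adjusted p = 0.00070). Bambi was at 57.6, 45.2 and 57.4 CPM against 44.6, 31.1 and 26.0 CPM, without overlap, with a log2 difference of 0.78 (SE 0.16, adjusted p = 0.0085). Free RNA held Id2 at 136, 132.5 and 68.9 CPM and Bambi at 71.1, 63.5 and 54 CPM in the same library order. For Id2 this was above both classes in whole mesenchyme and between them in both GFP-low replicates. For Bambi it was above both classes in whole mesenchyme and GFP-low replicate 1, and between them in GFP-low replicate 2. Msx1 in free RNA lay between the classes in each library. The part of free RNA in these differences was not tested.

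Atoh8 showed the largest difference in the other direction. It stood at 5.79, 3.69 and 2.71 CPM in Cd81-high and 11.4, 22.8 and 12.2 CPM in Cd81-low cells of whole mesenchyme and GFP-low replicates 1 and 2, without overlap. The log2 difference was -2.06 (SE 0.24, adjusted p = 0.00040). Id4 was at 15.2, 10.96 and 18.1 CPM against 24.5, 30.0 and 30.2 CPM, without overlap, with a log2 difference of -0.88 (SE 0.16, adjusted p = 0.0041). Id1 was at 34.8, 12.2 and 16.6 CPM against 46.8, 38.4 and 30.3 CPM. These ranges overlapped between libraries, but Cd81-high was lower within each, with a log2 difference of -0.92 (SE 0.19, adjusted p = 0.0085). Smad6 was at 9.45, 15.3 and 6.54 CPM against 18.8, 23.4 and 11.4 CPM, with overlapping ranges, lower within each library, and a log2 difference of -0.66 (SE 0.13, adjusted p = 0.0056). Summed markers of other cell types moved with the class, without overlap over the 3 libraries. Pericyte markers were at 20.0 to 24.4 CPM in Cd81-high and 78.5 to 163 CPM in Cd81-low cells, smooth muscle markers at 24 to 87.2 and 185 to 257 CPM, and B or plasma cell markers at 49.9 to 60.5 and 110.5 to 446 CPM. Markers of interstitial cells of Cajal (13.0 to 17.7 against 44.4 to 66.6 CPM) and of macrophages (5.55 to 12.8 against 14.9 to 24.04 CPM) did so too. The part of such cells in the differences of Id4, Id1, Smad6 and Atoh8 was not tested. Thinned to 1000 UMIs a cell, Id4 (adjusted p = 0.064) and Smad6 (adjusted p = 0.057) no longer passed.

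Smad7 and Id3 depended on the libraries in the fit. Smad7 was at 97.9, 67.7 and 147 CPM in Cd81-high and 95.3, 47.7 and 95.1 CPM in Cd81-low cells of whole mesenchyme and GFP-low replicates 1 and 2, and the ranges overlapped. Its log2 difference was 0.49 (SE 0.14, adjusted p = 0.034), and it did not pass without GFP-low replicate 1 (adjusted p = 0.20) or without GFP-low replicate 2 (adjusted p = 0.14). Smad7 was highest in a cluster of shallow Cd81-high cells, with a median of 1587 to 2300.5 UMIs a cell, at 198, 145 and 386 CPM. Without the shallow clusters the log2 difference was 0.40 (adjusted p = 0.053). Id3 was at 1896, 1449 and 2378 CPM in Cd81-high and 2970.2, 1510.2 and 1430.4 CPM in Cd81-low cells. The overlap was wide and the log2 difference was 0.09 (SE 0.26, adjusted p = 0.82), while without whole mesenchyme it was 0.48 (adjusted p = 0.048). The 8 blood endothelial markers summed to 4.60 to 34.8 CPM in Cd81-high and 9.36 to 39.7 CPM in Cd81-low fibroblasts, against 11670 CPM in blood endothelium.

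**Figure D2:**
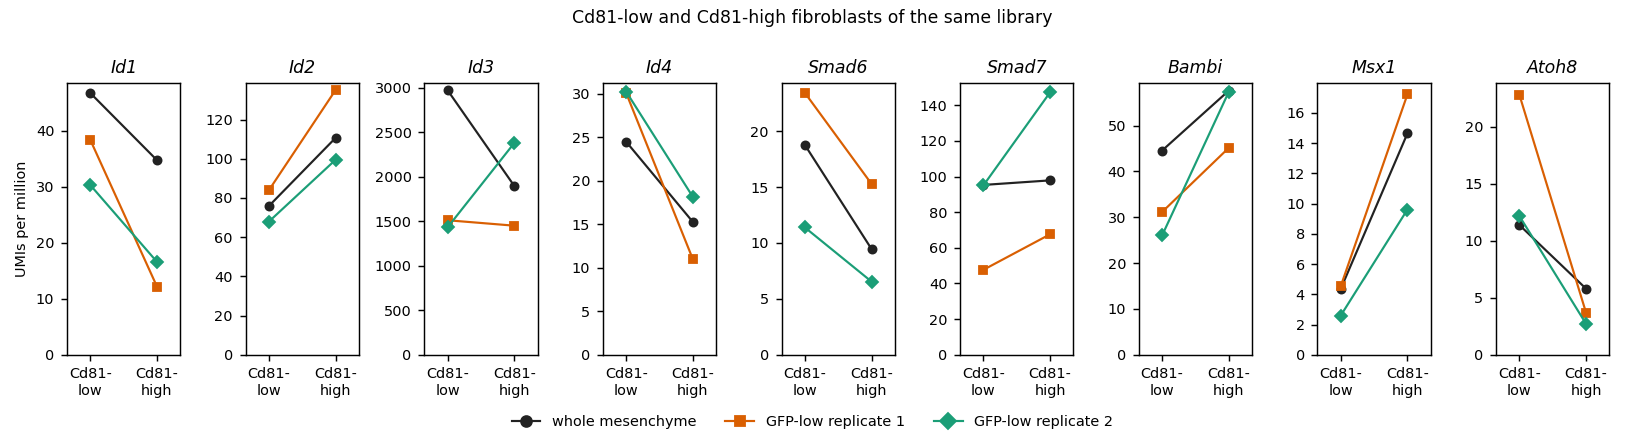
Level of 9 genes in CPM (linear axis) in Cd81-high and Cd81-low fibroblasts, with 1 line per library joining its classes. Msx1, Id2 and Bambi rise and Atoh8, Id4, Id1 and Smad6 fall from Cd81-low to Cd81-high in all 3 libraries, while Id3 moves in opposite ways in whole mesenchyme and GFP-low replicate 2.

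Ligand and antagonist genes of the pathway also differed between the same classes. Of 8 ligands tested, 2 were higher and 5 lower in Cd81-high cells, with a median log2 difference of -0.86 against 0.00 over all genes. Gdf6 (4.63) and Gdf10 (4.31) were higher, whereas Bmp7 (-5.38), Bmp5 (-3.66), Bmp4 (-1.14) and Bmp2 (-1.02) were lower. Of 11 antagonists, 7 were higher and 2 lower, with a median of 1.07, led by Chrdl1 (4.13) and Fst (3.52), with Grem1 at 2.18. Of 13 receptors and Smads, 2 were higher and 3 lower, among them the co-receptor Rgmb (1.16), the activin type II receptor Acvr2a (0.70) and Smad9 (-1.89). Of 8 other reported targets, 4 were higher and 3 lower, with Gata6 at 4.24, Tbx2 at -5.63 and Runx2 at -3.52. Of 3 E proteins, the partners that Id proteins bind, only Tcf4 passed, at -0.79. Of 5 TGF-beta response genes, 2 were higher (Tgfbi and Skil) and 1 lower (Pmepa1), and of 12 dissociation genes 5 were higher and none lower.

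Whether the class difference was the same in whole mesenchyme and in GFP-low was tested with an interaction term. Of the 9 genes, 1 passed, Id3, beside 1.57% of 6252 genes. For Id3, the log2 Cd81-high minus Cd81-low difference of whole mesenchyme minus that of GFP-low was -1.12, with SE 0.25 and an edgeR adjusted p of 0.031. Id3 was lower in Cd81-high cells in whole mesenchyme (1896 against 2970.2 CPM), near equal in GFP-low replicate 1 (1449 against 1510.2 CPM) and higher in GFP-low replicate 2 (2378 against 1430.4 CPM). The whole mesenchyme arm is 1 library, so the test takes its spread from the GFP-low pair alone, with 1 residual degree of freedom. edgeR moderates that spread over all genes tested, so the p-value leans on the spread of other genes. For Id3 the GFP-low pair did not have a common direction. The call was lost with DESeq2 (adjusted p = 1.00) and under 4 other settings (adjusted p from 0.13 to 0.33). The 12 dissociation genes, of which 4 passed the same test and all 4 were lower, summed to 37214, 33712 and 45534 CPM in Cd81-high and 38135, 25846 and 29545 CPM in Cd81-low cells of whole mesenchyme and GFP-low replicates 1 and 2. Their part in the Id3 difference was not tested.

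Within the fibroblasts, Id3 varied more between clusters than between the classes. All 8 genes that could be tested for differences among fibroblast clusters passed, beside 60.5% of 4343 genes, so that count is not particular to them. Id3 ranged over clusters from 1041 to 3551 CPM in whole mesenchyme, from 661 to 2034 CPM in GFP-low replicate 1 and from 621 to 2924 CPM in GFP-low replicate 2. The lowest value in GFP-low replicate 2 was in a Cd81-low cluster whose dissociation genes summed to 8338 CPM, and the highest in a Cd81-high cluster where they summed to 54401 CPM. Over the 27 cluster and library sums of fibroblasts, Pearson's r between log2 levels of Id3 and of the summed dissociation genes was 0.765 (Spearman's rho 0.751). It was 0.800 over the 10 sums of whole mesenchyme, 0.796 over the 7 of GFP-low replicate 1 and 0.774 over the 10 of GFP-low replicate 2, and 0.673 without the 2 sums farthest from the median. Spearman's rho in the 3 libraries was 0.903, 0.857 and 0.479, so the rank order was loosest in GFP-low replicate 2. These sums share libraries and depth, and 1.27% of 6157 genes had an r as high. The r of Id3 was 0.126 with Grem1 and 0.0034 with the summed ligands over the same sums.

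**Figure D3:**
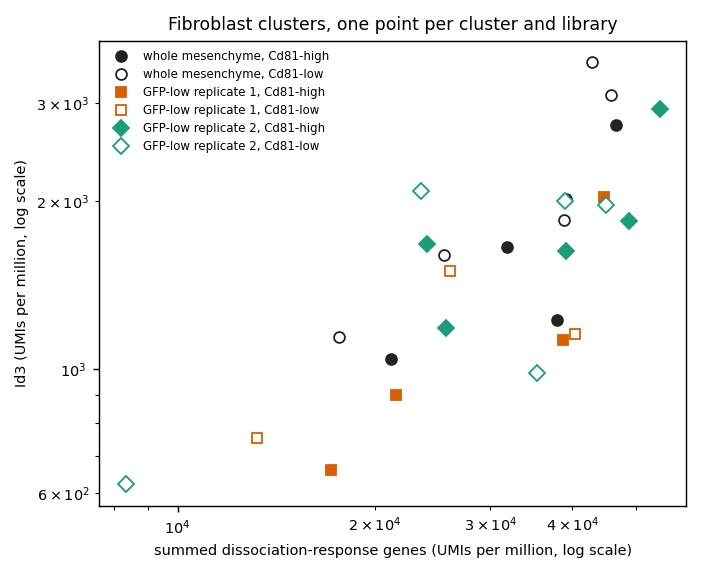
Id3 against the summed level of 12 dissociation genes, both in CPM on log axes, with 1 point for each of 27 fibroblast cluster and library sums, marked by library and class. The points rise together in each library (r from 0.774 to 0.800), with a lower rank correlation in GFP-low replicate 2 (rho 0.479).

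Grem1 level within a class was used next, to ask how the 9 other genes stood in cells with much or little RNA of the antagonist. Cells with at least 2000 UMIs were thinned to 2000 and gated at the 33rd and 67th percentile of Grem1 within each class and library. In Cd81-high fibroblasts, 5 of 9 genes passed between Grem1-high and Grem1-low cells, beside 17.5% of 11506 genes. Id2 had the clearest difference. Whole mesenchyme held 77.6 CPM in Grem1-low and 146 CPM in Grem1-high cells. These values were 71.2 and 195 CPM for GFP-low replicate 1, and 61.2 and 150.3 CPM for GFP-low replicate 2. All 3 high values lay above all 3 low ones, and the log2 difference was 1.34 (SE 0.08, adjusted p = 1.2e-09). Over 5 bins of thinned Grem1 (0, 1, 2 to 3, 4 to 7, and 8 or more UMIs), Id2 rose at each step in each library, from 60.6 to 146 CPM in whole mesenchyme, from 58.7 to 209 CPM in GFP-low replicate 1 and from 56.0 to 150.3 CPM in GFP-low replicate 2.

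**Figure D4:**
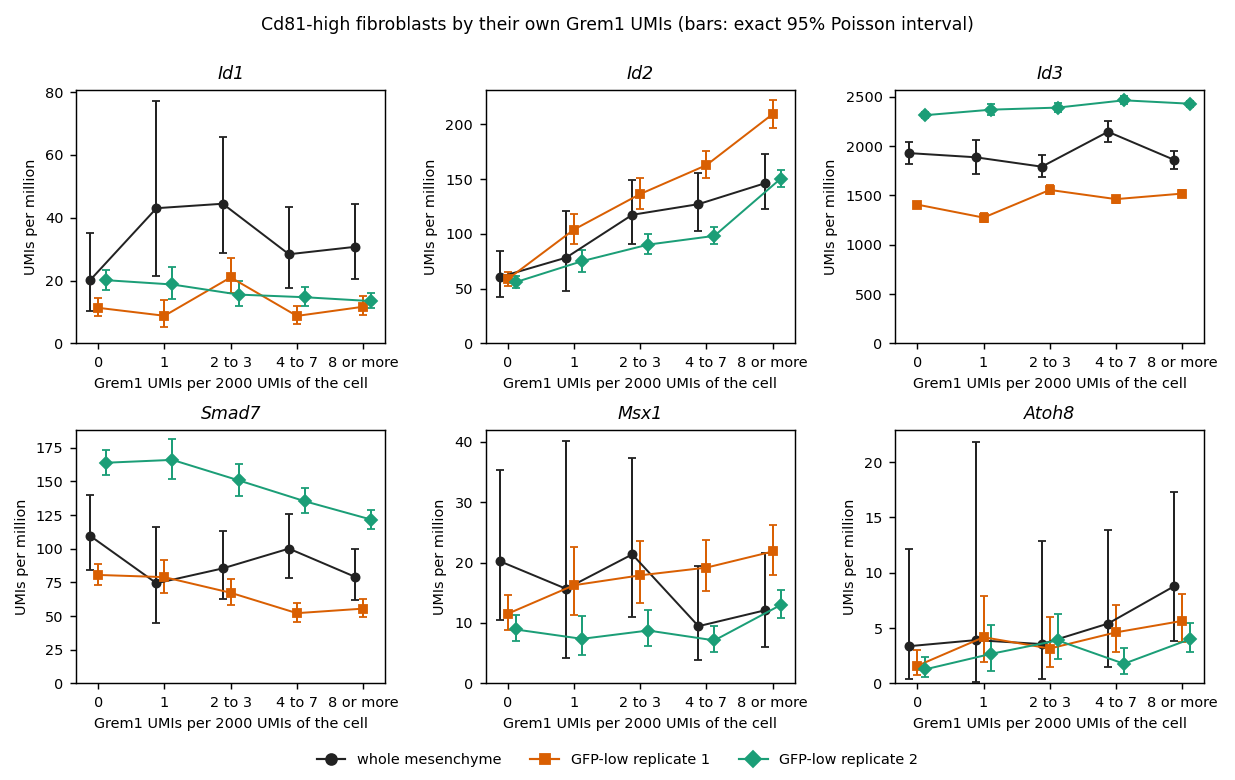
Level in CPM of genes in Cd81-high fibroblasts by the number of Grem1 UMIs in the cell after thinning to 2000 UMIs, with 1 line per library and exact 95% Poisson intervals. Id2 climbs from between 56.0 and 60.6 CPM at 0 Grem1 UMIs to between 146 and 209 CPM at 8 or more.

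Atoh8, although lower in Cd81-high cells as a class, was higher in their Grem1-high part. It rose from 2.62 to 8.79 CPM in whole mesenchyme (3 and 8 UMIs), from 2.31 to 6.10 CPM in GFP-low replicate 1 (18 and 43 UMIs) and from 1.66 to 4.01 CPM in GFP-low replicate 2 (18 and 38 UMIs), with a log2 difference of 1.39 (SE 0.28, adjusted p = 0.0016). Msx1 was at 15.7 and 12.1 CPM in whole mesenchyme, 12.8 and 22.4 in GFP-low replicate 1 and 8.50 and 13.0 in GFP-low replicate 2. Its log2 difference was 0.66 (SE 0.15, adjusted p = 0.0042), with whole mesenchyme going the other way on 18 and 11 UMIs. Bambi was at 62.8 and 61.5, 38.9 and 55.9, and 55.8 and 62.9 CPM in that order, with a log2 difference of 0.31 (SE 0.09, adjusted p = 0.017). Msx1 (adjusted p = 0.23) and Bambi (adjusted p = 0.42) did not pass without GFP-low replicate 1, nor with DESeq2 (adjusted p = 0.41 and 0.47).

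Smad7 moved against the others. It was at 93.3 and 79.1 CPM in Grem1-low and Grem1-high Cd81-high cells of whole mesenchyme, 80.1 and 53.7 CPM in GFP-low replicate 1 and 164 and 122 CPM in GFP-low replicate 2. It was lower in the Grem1-high cells of each library, with a log2 difference of -0.43 (SE 0.07, adjusted p = 0.00037), which was -0.21 (adjusted p = 0.093) when the gates were compared within clusters. Id1 was at 24.4 and 30.8, 10.7 and 10.1, and 19.8 and 13.5 CPM, with no common direction and a log2 difference of -0.26 (adjusted p = 0.27). Id3 was at 1857 and 1860.1, 1371 and 1511, and 2329 and 2429 CPM, with a log2 difference of 0.10 (adjusted p = 0.23). Within clusters, the Id3 difference was 0.37 (adjusted p = 0.0022). Id4 and Smad6, both with a log2 difference of 0.27, did not pass.

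Among the surrounding pathway genes of the same cells, Gdf6 (1.79) and Bmp4 (0.76) were higher and Bmp6 (-1.09) was lower in Grem1-high cells, as 2 and 1 of 6 ligands tested. Among the antagonists, Fstl1 (-0.81) and Fst (-0.75) were lower. Of 13 receptors and Smads, 2 were higher, Rgmb (0.26) and Eng (0.24). Of 7 other reported targets, none was higher and 4 were lower, among them Gata6 (-3.35), Smurf1 (-0.63) and Tob1 (-0.55). Of 5 TGF-beta response genes, 1 was higher and 3 were lower. Markers of smooth muscle moved with the gate, from 82.8 to 60.4, 54.8 to 29.3 and 33.2 to 14.97 CPM for the sum of 6 genes. Pericyte markers went the other way, from 20.1 to 30.8, 17.3 to 28.4 and 19.0 to 21.5 CPM, as did markers of interstitial cells of Cajal, from 15.7 to 22.0, 9.11 to 18.0 and 10.99 to 16.3 CPM. B or plasma cell markers rose from 40.1 to 41.8, 34.3 to 71.0 and 52.8 to 77.8 CPM. Blood endothelial markers rose from 30.5 to 31.9, 9.37 to 10.2 and 3.51 to 6.11 CPM. Markers of the Cd81-high class itself were lower, from 3481 to 3015, 5330.4 to 4527 and 3397 to 2988 CPM, and Cd81-low markers were also lower in each library. The part of these markers in the differences was not tested. The summed dissociation genes were at 36167 and 36775, 32961 and 33800, and 43681 and 46590 CPM.

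In Cd81-low fibroblasts Grem1 is lower, and both percentiles lay at 0 UMIs in whole mesenchyme and GFP-low replicate 2. The gates there hold all cells without a Grem1 UMI (2124 and 892 cells) and all with 1 or more (584 and 387 cells). Free RNA held Grem1 at 403, 1127 and 1310 CPM in whole mesenchyme and GFP-low replicates 1 and 2. In each library this was above the Grem1 level of Cd81-low fibroblasts given earlier. The part of free RNA in this gate was not tested. In this class 1 of 9 genes passed between Grem1-high and Grem1-low cells, beside 6.62% of 11140 genes. Msx1 was at 2.93 and 9.46 CPM in whole mesenchyme (37 and 34 UMIs), 3.06 and 8.25 CPM in GFP-low replicate 1 (15 and 19 UMIs) and 1.86 and 4.28 CPM in GFP-low replicate 2 (11 and 12 UMIs). It was higher in the Grem1-high cells of each library, with a log2 difference of 1.5 (SE 0.27, adjusted p = 0.0033), and did not pass with DESeq2 (adjusted p = 0.097). With gates compared within clusters Msx1 was not among the genes tested, and Id3 passed as lower in Grem1-high cells (-0.21, adjusted p = 0.013). The 7 pericyte markers also rose with the gate, from 56.0 to 142, 103 to 281 and 65.7 to 153 CPM, and the 5 Cd81-low markers fell from 16180 to 9852, 14166 to 7374 and 15513 to 8799 CPM. Their part in the Msx1 difference was not tested. Id2, which differed so clearly in the other class, was at 76.9 and 80.9, 84.3 and 87.8, and 62.1 and 82.0 CPM, with a log2 difference of 0.15 (adjusted p = 0.37). Smad6 (-0.51, adjusted p = 0.073), Id4 (0.36, adjusted p = 0.11) and Id1 (-0.35, adjusted p = 0.20) did not pass with all 3 libraries at the settings used here. Without a filter on low counts, Smad6 and Id1 passed with all 3 (adjusted p = 0.011 and 0.013). Each of the 3 genes passed when 1 library was left out, Smad6 without whole mesenchyme (adjusted p = 0.021), Id4 without GFP-low replicate 1 (adjusted p = 0.043) and Id1 without GFP-low replicate 2 (adjusted p = 0.024). Around them, Bmp7 (-0.97) and Bmp2 (-0.43) were lower in Grem1-high cells, 2 of 5 ligands tested, while Bmp4 (0.05) and Bmp5 (-0.17) did not pass. Among the antagonists, Chrd (0.72) was higher and Nbl1 (-0.71) was lower. Rgmb (0.70) and Acvr2a (0.49) were higher, 2 of 13 receptors and Smads, and the target genes Tbx3 (-1.17) and Tbx2 (-0.94) were lower, 2 of 6. Of 12 dissociation genes 4 were higher, among them Hspa1b (0.34).

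The cells were gated in the same way on their own ligand UMIs, which set them less far apart. In Cd81-high cells the median was 0 to 1 ligand UMIs per 2000 in the low and 2 to 3 in the high gates, against 0 to 1 and 9 to 12 UMIs for Grem1. In GFP-low replicate 2 the ligand-low gate took 2626 cells, with 815 between and 636 in the high gate. In Cd81-high fibroblasts, 1 of 9 passed between ligand-high and ligand-low cells, beside 2.35% of 11036 genes. Id2 was at 105 and 103 CPM in whole mesenchyme, 123 and 160.3 CPM in GFP-low replicate 1 and 90.6 and 122 CPM in GFP-low replicate 2. It was higher in both GFP-low libraries and near equal in whole mesenchyme, with a log2 difference of 0.36 (SE 0.07, adjusted p = 0.00065), and did not pass with DESeq2 (adjusted p = 0.14). Grem1 itself was higher in ligand-high cells, at 2315 and 3198, 2038 and 2718, and 2491 and 3377 CPM, a log2 difference of 0.44, so Grem1 moved with the ligand gate, and its part in the Id2 difference was not tested.

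In Cd81-low fibroblasts, 0 of 9 genes passed edgeR's test between ligand-high and ligand-low cells, beside 0.291% of 11015 genes. At an unadjusted p under 0.05, edgeR called 616 genes, 2 of them among the 9 (Id4, 0.41, and Smad7, 0.21), and DESeq2 called 0 of the 9 after adjustment. Id1 was at 39.5 CPM in ligand-low and 56.7 CPM in ligand-high cells of whole mesenchyme. In GFP-low replicate 1 it was at 43.8 and 21.9 CPM, and in GFP-low replicate 2 at 38.7 and 21.1 CPM. The direction was thus opposite in whole mesenchyme and GFP-low, and the pooled log2 difference was -0.19 (adjusted p = 1.00). Without whole mesenchyme it was -0.93 (adjusted p = 0.00064). An interaction term, added after seeing the data, gave a difference of 1.45 between whole mesenchyme and GFP-low (SE 0.23, edgeR adjusted p = 4.1e-06), with 1 library in the whole mesenchyme arm. Telocyte markers, 6 genes, stood at 403 and 465 CPM in ligand-low and ligand-high cells of whole mesenchyme, at 203 and 190.2 CPM in GFP-low replicate 1 and 263 and 254 CPM in GFP-low replicate 2, and their part in the Id1 values was not tested.

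**Figure D5:**
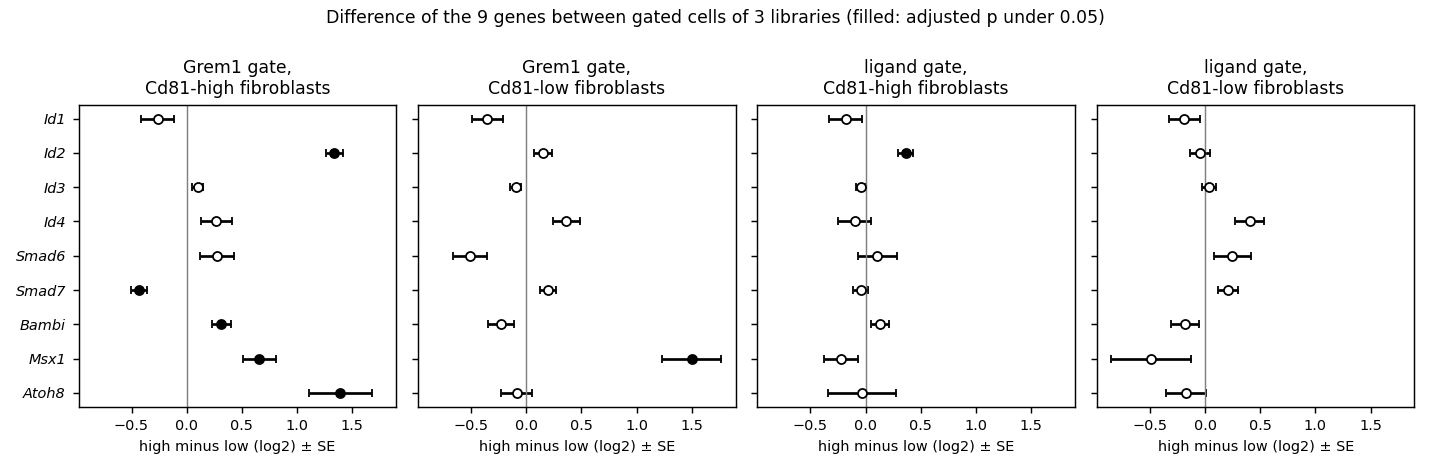
Log2 difference between high and low cells of the 9 genes for the Grem1 and the ligand gate in each fibroblast class, with bars of 1 SE from edgeR. Id2, Atoh8 and Msx1 in Grem1 gates stand farthest from 0, and the ligand gates stay closer to 0.

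In telocytes, which carry the most ligand RNA, the cells of whole mesenchyme were binned by thinned ligand UMIs (0, 1, 2, 3 to 4, and 5 or more). Id1 was at 590, 516, 576, 620 and 910 CPM over these bins, with 874 to 946 as the interval of the top bin and 584 to 658 as that of the next. Id2 was at 530, 381, 427, 464 and 359 CPM, without such a rise. Id3 was at 4777, 4892, 4669, 4749 and 5309 CPM. These bins come from 1 library and carry no test.

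Over the 27 fibroblast sums, Msx1 and Grem1 had an r of 0.783, which fell to 0.311 over the 14 Cd81-high and 0.265 over the 13 Cd81-low sums. The r of Id2 with Grem1 was 0.563 over all 27 and 0.601 within Cd81-high. Id1 had an r of 0.252 with the ligands and -0.125 with Grem1. Over the 17 sums of library and class, the 5 genes whose log2 level was most like that of Id1, of 6596 compared, were Cd200 (r 0.951), Ednrb (0.920), Tm4sf1 (0.915), Dgkh (0.904) and Gcc2 (0.900). Those most like Id3 were Btg2 (0.876), Ier3 (0.874), Vegfa (0.872), Ppp2r2d (0.863) and Zfp131 (0.853). Those most like Msx1 were Ncoa7 (0.827), Ano6, Dlc1, Adamts1 and Fosl2, and those most like Atoh8 were Fzd8 (0.835), Mtx2, Tbx3, Arhgef2 and Nes. Ednrb was also one of the telocyte markers. These sums share libraries, and the likeness is a description over classes.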

How the data were processed

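The whole mesenchyme library and both GFP-low libraries are 10x Genomics UMI counts per gene and barcode as deposited by the authors. The submitters' processing notes name Cell Ranger 3.0.2 and mm10. Cells were filtered as given above, and the 31053 genes were split at random into 15554 for clustering, with all cell type markers, and 15499 held out, with the 10 genes and all pathway lists. Clustering used scanpy 1.11.5 (2000 variable genes, 30 components, 15 neighbours, Leiden resolution 1), and 19 clusters were named from marker lists. Names are rebuilt, not the authors', and 1 cluster stayed unnamed. Scrublet called 2 to 3 doublets a library, so it had not worked, and no doublets were removed. An alternative left out the 6% of cells with the highest doublet score.

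UMI counts were summed per library and class or gate (at least 20 cells) and tested with edgeR 4.0.16 (filterByExpr, TMM, quasi-likelihood, library as block, Benjamini-Hochberg, threshold 0.05), in R 4.3.3. Only held-out genes entered the class, interaction and cluster tests, so the fitted levels differ in scale from the CPM printed. The gates left out the gating genes. DESeq2 1.42.0 was an alternative. Simulated data gave every gene the same spread, and the changed genes were drawn at random from those that passed the filter on low counts. Rates found this way need not hold for genes with few UMIs, such as Msx1 and Atoh8. On these simulated data the class test recovered 88.9% of 2-fold changes over 6249 genes and the Grem1 gate 86.9% over 11479. The interaction recovered 31.2% over 6234. Counts of the GFP-low replicates differed by a chi-square of 223 per degree of freedom over 14885 genes, so they were not treated as 1 library deposited again. This does not show that they are separate animals. Genes were matched to RefSeq by symbol, and promoters come from GRCm38.p6. All 10 genes are named in each comparison. Of other pathway genes, up to 3 per list are named, those with the largest change among genes that passed and moved alike in each library, with Grem1, Bmp2, Bmp4, Bmp5 and Bmp7 where tested. The values of 1 listed gene are not reported here. The genes and lists were chosen with earlier results of these data known.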

Additional observations from a re-analysis of the deposited data

Results flagged for a closer look

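Id3 was called in the test of whole mesenchyme against GFP-low. Its Cd81-high minus Cd81-low difference was lower in whole mesenchyme than in GFP-low by -1.12 on the log2 scale (edgeR, adjusted p = 0.031), and it was lost with DESeq2 and in cells with at least 2000 UMIs (adjusted p = 1.00 and 0.13). Id1 was called in a like test. Its ligand-high minus ligand-low difference in Cd81-low fibroblasts was higher in whole mesenchyme than in GFP-low by 1.45 on the log2 scale (SE 0.23, edgeR, adjusted p = 4.1e-06), a test added after its opposite directions had been seen. The spread in both tests comes from the 2 GFP-low libraries alone. edgeR moderates it over all genes tested, so both p-values lean on the spread of other genes. For Id3 the 2 GFP-low libraries did not move alike. With 1 whole mesenchyme library, genotype, sort and library cannot be told apart in either result.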

How the results depend on the processing

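Of the counts of the 9 genes called, 47 stayed within 1.5 times of the main value and 25 moved, and no called difference turned its direction. Library is the block in all fits. The numbers 1 and 2 do not pair libraries, since whole mesenchyme has 1. Without the replicate block, the genes called fell from 8 to 3 between the classes, from 8 to 5 among clusters, from 5 to 1 and from 1 to 0 in the Grem1 gates of Cd81-high and Cd81-low cells, and from 1 to 0 in the ligand gate of Cd81-high cells. With single libraries left out, the ranges were 7 to 9 (classes), 8 to 9 (clusters), 3 to 5 and 2 to 2 (Grem1 gates), and 1 to 1 and 0 to 1 (ligand gates). The lowest Grem1 count in Cd81-high cells came without GFP-low replicate 1, and the 1 in the ligand gate of Cd81-low cells came without whole mesenchyme. With DESeq2 the counts were 3 and 0 (Grem1 gates), 0 (ligand gate, Cd81-high) and 0 (interaction). Without a filter on low counts they were 3 (Grem1 gate, Cd81-low) and 3 (interaction). Gating by no against at least 1 UMI gave 3 (Grem1, Cd81-high) and 2 (ligand, Cd81-high). The interaction gave 0 in cells with at least 2000 UMIs, 0 without the highest doublet scores, 0 at Leiden resolution 2, 0 without the shallow clusters (added after seeing the data) and 2 with cells gated by their own markers. In the Grem1 gate of Cd81-low cells the 1 gene called within clusters was Id3, not Msx1, which was not tested there. Among clusters, 5 genes were called in cells with at least 2000 UMIs and 5 at resolution 2, where 5 could be tested. The cause of these shifts was not tested. Across settings 21 values that passed in neither setting changed sign. With cells gated by their own markers 22 of 80 levels moved beyond counting error, Id1 in Cd81-low fibroblasts among them (101 CPM), and Id1 was then at least 2-fold above that class in 4 rather than 5 of the 6 other whole mesenchyme classes that are not fibroblasts. Msx1 and Atoh8 rest on 3 to 43 UMIs in many gates, which limits their precision.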
